A study of Homo sapiens with 4 samples.

Results

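The cyclins, cyclin-dependent kinases (CDKs), checkpoint proteins and mitotic regulators are the machinery that drives a cell through its division cycle. The 55 genes were chosen by name, and every probe set whose only gene symbol on the platform is one of them was taken. This gave 143 of the 54675 probe sets, and 54 of the 55 genes. ANAPC1, the largest subunit of the anaphase-promoting complex, was not analysed here because its 3 probe sets carry other symbols as well.

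The mRNAs that came down with the fragile X protein FMRP were set against the mRNAs of lysates of the same line. The immunoprecipitated (IP) RNA was recovered with the anti-FLAG M2 antibody from a lysate of doxycycline-treated FlpIn T-Rex HEK293 cells that make FlagHA-tagged FMRP from a stable transgene, and the lysate RNA is total RNA set aside from such cells before the IP. All samples thus come from 1 human embryonic kidney line induced to make the bait for 16 h at 1 µg/ml doxycycline, and neither cells without the transgene nor a mock IP are among them. There were 2 IP and 2 lysate samples, each on its own Human Genome U133 Plus 2.0 array with 2 µg of labelled RNA, and the labels do not say whether the replicates came from separate cultures, so the p-values measure only the spread between these samples, which may be technical.

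In a dividing cell, cyclins rise and fall in turn and switch on their CDK partners. D and E cyclins act with CDK4, CDK6 and CDK2 before DNA is copied, and A and B cyclins act with CDK1 to bring on mitosis, while CDC25 phosphatases remove and WEE1 adds the phosphate that holds CDKs inactive. In mitosis the spindle checkpoint keeps the anaphase-promoting complex (APC/C) idle until every chromosome is attached, after which the APC/C marks cyclin B and securin for destruction and separase cuts the sister chromatids apart. HEK293 cells divide continually in culture.

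The values are log2 probe set signals. A probe set was kept if its mean over the 4 arrays reached 4.70, which is the middle value over the whole platform, and each gene was represented by its kept probe set with the highest mean. All 54 genes passed this filter, their group means ran from 6.73 to 12.62, and none lay below the filter in either group. Pearson's r across the 13157 genes tested was 0.992 between the IP arrays and 0.993 between the lysate arrays, against 0.873 to 0.903 between an IP and a lysate array. FMR1, which encodes FMRP, stood at 9.28 and 9.03 on the IP arrays, against 9.64 and 9.51 on the lysate arrays, and whether its probe set also reads the transgene was not analysed here. Of 8 genes listed for HEK293 cells, 6 passed the filter, among them NEFL, VIM, KRT8 and KRT18, while NEFM and SOX11 did not. Of 12 markers of other cell types 10 had a probe set and 4 of these passed, with mean signals of at most 7.31. The log2 signals of all 10 summed to 46.08 and 47.66 on the IP arrays, against 44.14 and 43.54 on the lysate arrays. Those of the 8 HEK293 genes summed to 65.33 and 64.78 on the IP arrays, against 62.41 and 63.19 on the lysate arrays.

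Signs of RNA quality moved with the groups. The 3′ probe set of GAPDH exceeded its 5′ probe set by 0.94 and 1.03 (log2) on the IP arrays, against 0.19 and 0.19 on the lysate arrays. For ACTB the same difference was 3.02 and 2.96 on the IP arrays, against 1.37 and 1.34 on the lysate arrays. The mean signal of the 18S rRNA control probe sets was 9.71 and 9.91 on the IP arrays, against 11.88 and 11.70 on the lysate arrays. The part of these differences in the gene results was not tested.

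Cell cycle mRNAs did not move as a block. Of the 54 genes, 41 passed the test, where 63.9% of all genes did: 18 were higher and 23 lower in the IP (limma, threshold of 0.05 on the p adjusted over all 13157 genes), and 13 did not pass. The higher share, 33.3%, lay near the 35.0% of all genes that were called higher. The lower share was 42.6%, beside 28.8% of all genes. With a mean of at least 6 required, the 54 genes all stayed. Of them 19 were then higher and 23 lower, beside 41.4% and 33.6% of all genes, so part of the gap goes with signal. The median change was 0.03 on the log2 scale with quartiles of -0.73 and 0.70, against a median of 0.08 and quartiles of -0.48 and 0.61 for all genes. The sign of the cell cycle median did not hold: it was -0.13 when a gene's probe sets were averaged and -0.01 without IP replicate 2. The IP arrays both lay above both lysate arrays for 26 of the genes and both below for 24, where 45.1% and 37.2% of all genes did so. AURKB, CDC20, CDK8 and TTK were the 4 genes whose groups overlapped.

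**Figure D1:**
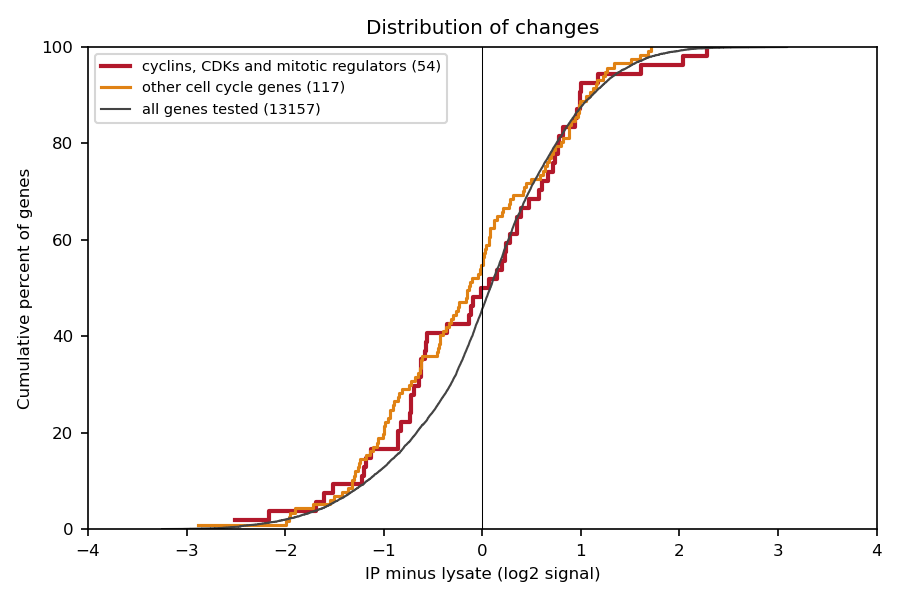
Cumulative percent of genes (y axis) against the change, IP minus lysate, in log2 signal (x axis), for the 54 cyclins, CDKs and mitotic regulators, for 117 other cell cycle genes and for all 13157 genes tested. The curve of the 54 genes crosses 50% near 0.03 and has its lower quartile at -0.73, beside -0.48 for all genes.

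Changes of at least 2-fold that passed the test were seen in 5 genes that rose, where 12.5% of all genes did so, and in 9 that fell, where 12.8% did. The 5 that rose were MKI67, TOP2A, ESPL1, CDC25A and CCNF. The 9 that fell were CCNC, CKS2, ANAPC11, CCNG1, CKS1B, CCNG2, CDC27, MAD2L1 and CDK7.

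All these values depend on how the arrays are placed on a common scale. Bacterial and phage hybridization controls were 0.48 higher on the IP arrays, and with each array centred on them the median of all genes moved to -0.40, that of the cell cycle genes to -0.45, and the counts to 9 higher and 28 lower, where 15.9% and 48.5% of all genes were called. That centring lowers the change of each gene by the same 0.48. A change is therefore best read relative to the other genes on the arrays. Each signal is pooled over many cells, so in a level, as opposed to a change between IP and lysate, fewer cells with a transcript and less of it per cell cannot be told apart.

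**Figure D2:**
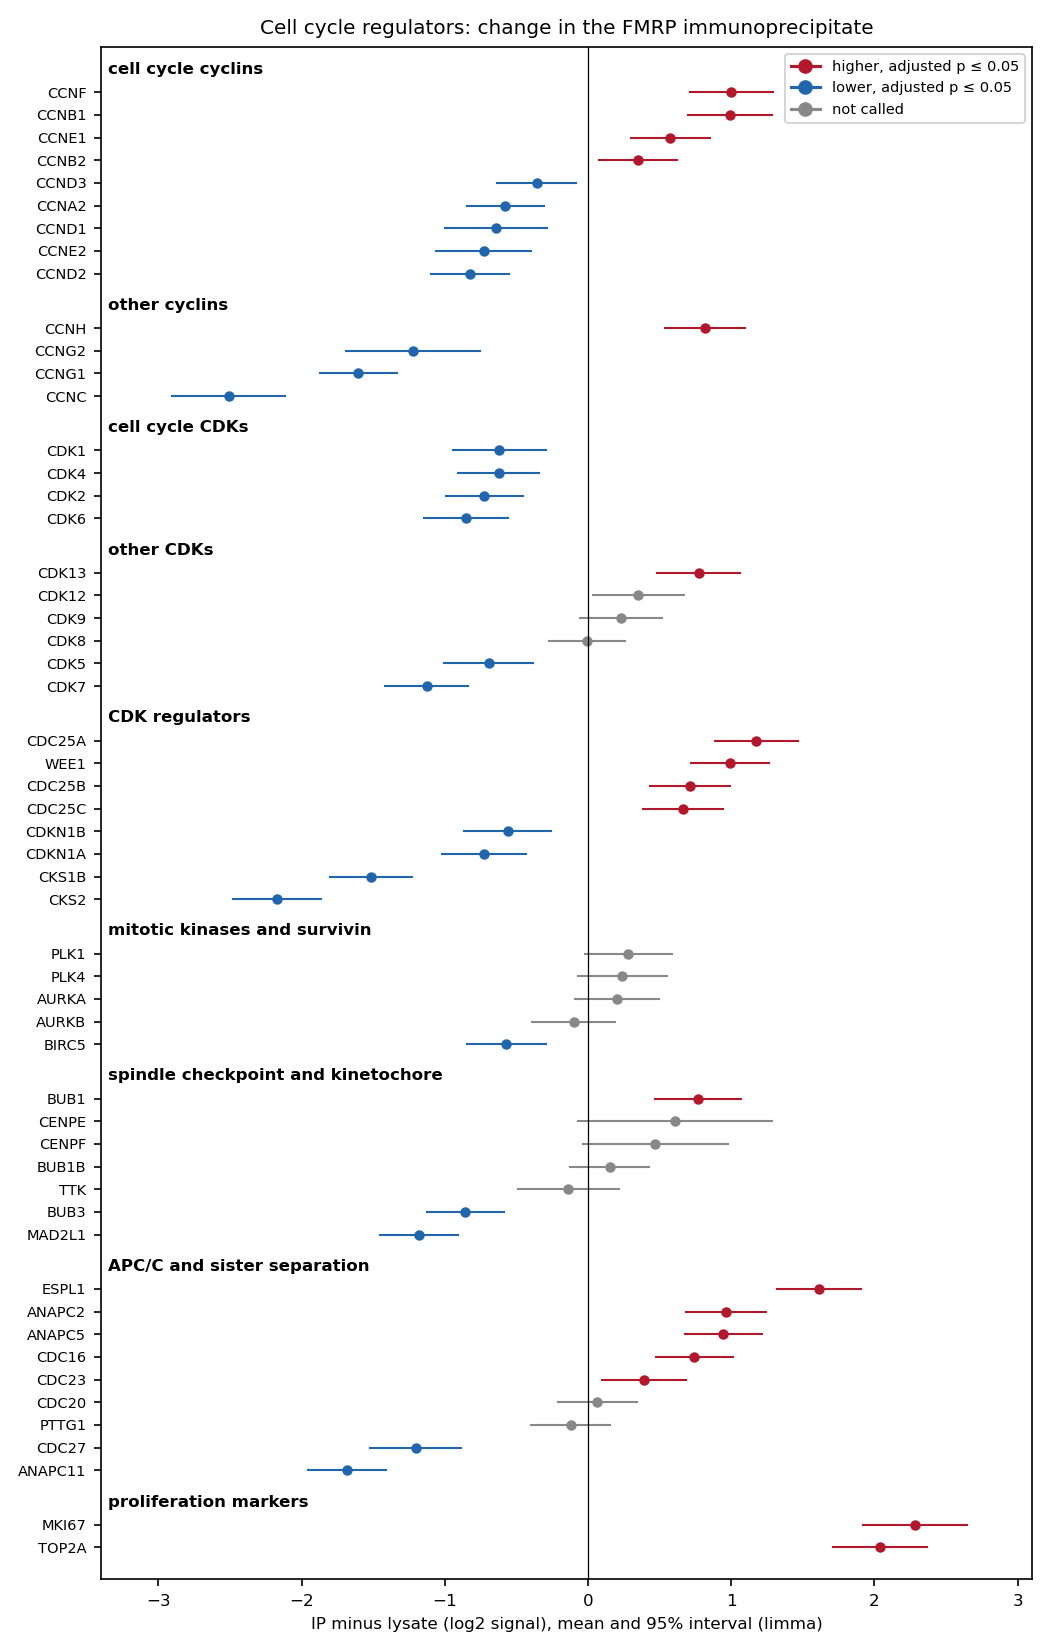
Change of each of the 54 genes, IP minus lysate, in log2 signal (x axis) with its 95% interval from limma, grouped by role. Points are the mean differences of 2 IP and 2 lysate arrays, and colours mark adjusted p of at most 0.05. All cell cycle CDKs lie left of 0 between -0.85 and -0.62, and MKI67 and TOP2A lie farthest right at 2.28 and 2.04.

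The proliferation markers MKI67 and TOP2A rose most. MKI67 encodes Ki-67, the very large protein that coats mitotic chromosomes and is stained to find dividing cells in tumours. Its log2 signal was 10.43 and 10.50 on the IP arrays, against 8.38 and 7.98 on the lysate arrays. The IP arrays stood together and more than 2 units above the nearer lysate array, and the difference was a 4.87-fold rise (log2 change 2.28 ± 0.15 SE, n = 2 each; limma adjusted p = 3.5e-05). The 3 other MKI67 probe sets rose as well, by 1.61, 1.79 and 1.95. TOP2A encodes the topoisomerase that untangles sister chromatids and is the target of several cancer drugs. It stood at 12.59 and 12.66 on the IP arrays, against 10.74 and 10.42 on the lysate arrays, and rose 4.11-fold (adjusted p = 3.5e-05). These groups were well apart too, but the size rests on the probe set: the other kept TOP2A probe set, the one used when only plain probe sets are taken, rose by 1.11.

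All 9 cyclins of the core cycle were called, 4 higher and 5 lower, where 35.0% and 28.8% of all genes were. Both B cyclins among them were higher, although CCNB2 turned negative with hybridization control centring. The 3 D cyclins were lower, and the E cyclins were split. CCNF, an F-box cyclin that acts in a ubiquitin ligase rather than with a CDK, had a log2 signal of 9.68 and 9.78 in the IP, against 8.64 and 8.81 in the lysate, a change of 1.00 ± 0.12 SE (adjusted p = 2.6e-04). CCNB1, the mitotic cyclin that partners CDK1, stood at 11.81 and 11.90 in the IP, against 10.76 and 10.96 in the lysate. Both of its probe sets rose, by 0.99 and 1.00. CCNE1, which starts DNA replication with CDK2, rose by 0.58 (adjusted p = 0.00334).

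CCNB2, the other B cyclin of this group, rose less, at 10.61 and 10.59 in the IP, against 10.18 and 10.31 in the lysate. Its change of 0.35 passed narrowly (adjusted p = 0.0308), and did not pass without either IP array (0.34 and 0.36), without lysate replicate 1 (0.29) or without the filter on low signal (adjusted p = 0.0786). Its second kept probe set stood at 5.18 and 4.38 in the IP, against 5.45 and 4.59 in the lysate, a change of -0.24 that was not called. With hybridization control centring CCNE1 (0.10) and CCNB2 (-0.13) did not pass, and with the mean of its probe sets CCNB2 (0.06) did not pass either.

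The cyclins that fell were the D cyclins, CCNE2 and CCNA2. D cyclins relay growth signals to the cycle. CCND2 stood at 10.25 and 10.13 in the IP, against 11.02 and 11.02 in the lysate, and fell by 0.83 ± 0.12 SE (adjusted p = 5.1e-04). Another CCND2 probe set fell by 0.93, and one at 7.98 and 7.69 in the IP, against 7.82 and 8.02 in the lysate, was not called (-0.09). CCND1 fell by 0.65, or by 0.41 on its other, plain probe set, and CCND3 fell by 0.36 with an adjusted p of 0.0301. CCND3 did not pass without either IP array (-0.32 and -0.40), without lysate replicate 2 (-0.29) or without the filter on low signal.

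CCNE2 fell by 0.73, while its paralog CCNE1 rose, and their arrays did not overlap between groups in either case. Both IP arrays lay above both lysate arrays for 45.1% of all genes and below for 37.2%. CCNE2 had 7.78 and 7.68 in the IP and 8.62 and 8.30 in the lysate. CCNE1 had 9.39 and 9.50 in the IP, against 8.83 and 8.91 in the lysate. CCNA2, needed for both DNA replication and entry into mitosis, fell by 0.58, at 9.01 and 8.95 in the IP, against 9.60 and 9.52 in the lysate. Its other probe set fell by 1.81, so the size of the CCNA2 change depends on the probe set.

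Of the 4 cyclins with other roles, CCNH rose and CCNC, CCNG1 and CCNG2 fell, where 35.0% and 28.8% of all genes did. CCNC, the cyclin of the CDK8 module of the Mediator complex, had the largest fall of all 54 genes. Its log2 signal was 8.22 and 7.74 in the IP, against 10.55 and 10.42 in the lysate, a change of -2.51 ± 0.17 SE (adjusted p = 3.5e-05). The IP arrays differed from each other by 0.48 and still lay more than 2 units below the lysate arrays. CDK8 itself, the kinase that cyclin C activates, showed no call on its brightest probe set, at 7.74 and 7.76 in the IP and 7.79 and 7.73 in the lysate (change -0.01, 95% interval -0.28 to 0.26). The other CDK8 probe sets changed by -0.43, which was not called, and by -1.16, which was, and the mean of the 3 was called lower at -0.53.

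CCNG1, a cyclin induced by p53, was very even in the IP. It stood at 10.60 and 10.61 there, against 12.25 and 12.17 in the lysate, and fell by 1.60 ± 0.11 SE (adjusted p = 3.6e-05). Its relative CCNG2, which is associated with cell cycle arrest, stood at 7.05 and 6.41 in the IP, against 7.96 and 7.94 in the lysate, and fell by 1.22 (adjusted p = 0.00108). The CCNG2 probe sets went in both directions. Others fell by 2.21 and 1.10, while 1 of low signal rose by 0.67, at 5.22 and 5.02 in the IP, against 4.40 and 4.50 in the lysate.

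The CDK-activating kinase is built from CDK7, cyclin H and the assembly factor MNAT1, and these mRNAs moved in opposite directions. CCNH had a log2 signal of 10.57 and 10.65 in the IP, against 9.87 and 9.71 in the lysate, and rose by 0.82 ± 0.12 SE (adjusted p = 6.4e-04). CDK7 stood at 7.44 and 7.25 in the IP, against 8.47 and 8.47 in the lysate, and fell by 1.13 ± 0.12 SE (adjusted p = 1.5e-04). MNAT1, taken from the wider list described further on, rose by 1.68, at 9.04 and 9.09 in the IP and 7.57 and 7.21 in the lysate. With hybridization control centring CCNH (0.34) did not pass.

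All 4 CDKs of the core cycle were called lower, where 28.8% of all genes were, and each fell by less than 1 unit. CDK6 stood at 8.21 and 8.09 in the IP, against 9.10 and 8.90 in the lysate, and fell by 0.85 ± 0.13 SE (adjusted p = 6.5e-04). CDK2 fell by 0.72 and CDK4 by 0.62, with adjusted p-values of 9.2e-04 and 0.00254. CDK1, the kinase of mitosis, stood at 11.47 and 11.20 in the IP, against 12.04 and 11.87 in the lysate, and fell by 0.62 (adjusted p = 0.00541). In none of the 4 did an IP array reach a lysate array, and 37.2% of all genes had both IP arrays below both lysate arrays. The 6 other kept probe sets of CDK1, CDK2 and CDK6 were also lower in the IP, between -1.51 and -0.22, of which a CDK1 probe set at -0.22 was not called.

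Of the 6 other CDKs, 1 rose, 2 fell and 3 did not pass, where 35.0% of all genes were called higher and 28.8% lower. CDK13, which phosphorylates the tail of RNA polymerase II, stood at 8.93 and 9.07 in the IP, against 8.16 and 8.30 in the lysate, and rose by 0.77 (adjusted p = 9.6e-04). Another CDK13 probe set rose by 0.64, and the remaining 2 kept ones were not called. They stood at 7.66 and 7.64 in the IP, against 7.77 and 7.78 in the lysate (-0.13), and at 4.83 and 4.74 in the IP, against 4.60 and 5.06 in the lysate (-0.04). With hybridization control centring CDK13 (0.29) did not pass.

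CDK12, its close relative, stood at 8.71 and 8.59 in the IP, against 8.17 and 8.43 in the lysate, a change of 0.35 with an adjusted p of 0.0514. Leaving out lysate replicate 2 (0.48) brought it past the threshold, as did the stricter filter and the spread estimate with a trend. The 5 other kept CDK12 probe sets ranged from -0.16 to 0.39 and none was called. CDK9, the kinase that releases paused RNA polymerase II, changed by 0.23 (95% interval -0.06 to 0.52). Its dimmer kept probe set was called higher at 0.59, as was the mean of its probe sets at 0.41. CDK5, best known for its work in neurons, fell by 0.69 (adjusted p = 0.00249).

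Of the 8 CDK regulators chosen here, 4 were called higher and 4 lower, where 35.0% and 28.8% of all genes were. Those called higher encode enzymes that add or remove the inhibitory phosphate, and those called lower encode proteins that bind CDKs. CDC25A, CDC25B, CDC25C and WEE1 were all higher, although with hybridization control centring CDC25B (0.23) and CDC25C (0.18) did not pass. CDC25A, the phosphatase that acts from the start of DNA replication onwards, stood at 10.38 and 10.32 in the IP, against 9.08 and 9.27 in the lysate. It rose 2.26-fold (log2 change 1.18 ± 0.12 SE; adjusted p = 1.2e-04), and its other probe sets rose by 1.05 and 2.04.

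WEE1, the kinase that opposes it, stood at 10.79 and 10.83 in the IP, against 9.77 and 9.87 in the lysate, and rose by 0.99, with its other probe set at 0.47. CDC25B rose by 0.71, at 11.40 and 11.33 in the IP and 10.58 and 10.72 in the lysate. CDC25C, the mitotic form, rose by 0.66, at 8.66 and 8.73 in the IP and 7.96 and 8.11 in the lysate. A dimmer CDC25C probe set stood at 5.72 and 5.67 in the IP, against 5.85 and 6.04 in the lysate, and its change of -0.25 was not called. The mean of the CDC25C probe sets changed by 0.21 and did not pass.

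CKS2 and CKS1B encode very small proteins that dock CDKs to their substrates. CKS2 stood at 10.07 and 9.81 in the IP, against 12.08 and 12.14 in the lysate, and fell by 2.17 ± 0.13 SE (adjusted p = 3.4e-05). CKS1B stood at 9.86 and 9.68 in the IP, against 11.30 and 11.26 in the lysate, and fell by 1.51 ± 0.12 SE (adjusted p = 4.7e-05). Each has 1 probe set, and in each the IP arrays lay more than 1 unit below the lysate arrays. The CDK inhibitor genes chosen here, CDKN1A and CDKN1B, fell as well. CDKN1A, encoding p21, stood at 8.47 and 8.35 in the IP and 9.04 and 9.23 in the lysate, a change of -0.73. CDKN1B, encoding p27, changed by -0.56.

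**Figure D3:**
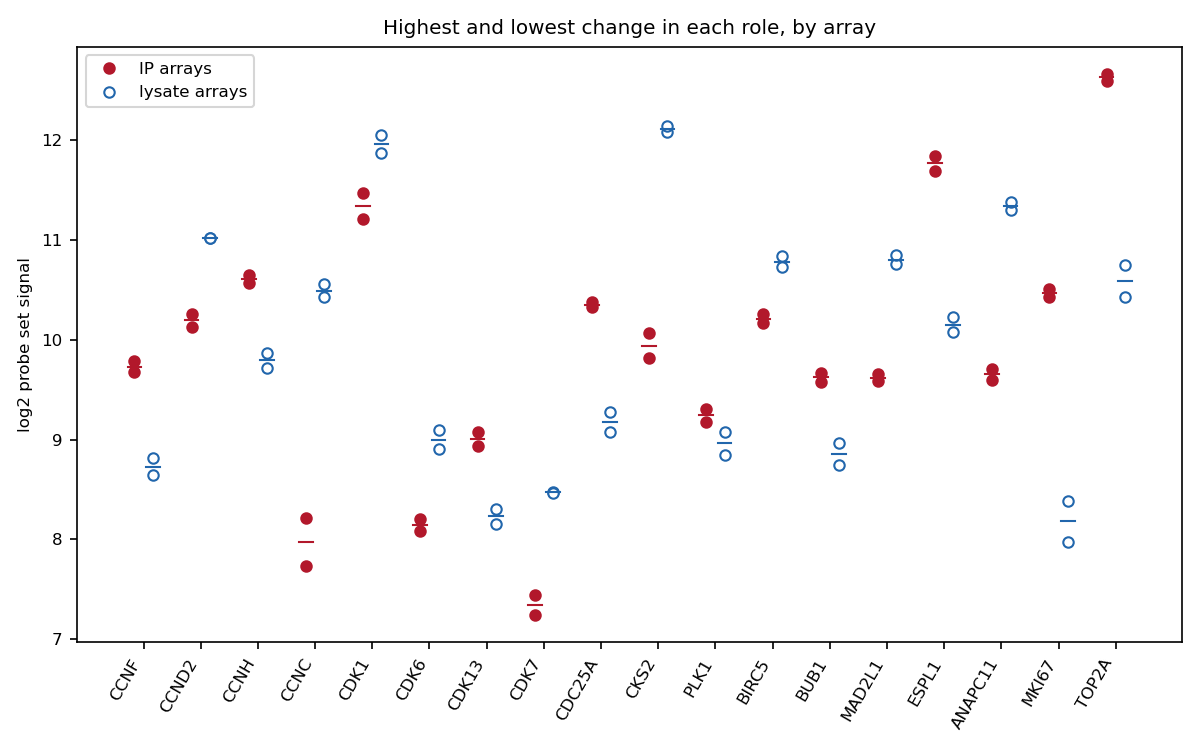
Log2 probe set signal (y axis) on each array for the gene with the highest and the gene with the lowest change in each role. Filled points are the 2 IP arrays, open points the 2 lysate arrays, and short lines the group means. These genes were picked for the size of their change, and their groups do not overlap. Of all genes, 45.1% had both IP arrays above both lysate arrays and 37.2% had both below. CCNC stood at 8.22 and 7.74 on the IP arrays, against 10.55 and 10.42 on the lysate arrays.

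In the group of mitotic kinases and survivin, none of PLK1, PLK4, AURKA and AURKB passed on the probe set with the highest mean. Of all genes, 63.9% passed. AURKA and AURKB were called under other choices of probe set. PLK1, the Polo kinase needed at many steps of mitosis, stood at 9.18 and 9.31 in the IP, against 8.85 and 9.08 in the lysate, which is 0.28 higher (adjusted p = 0.0949; 95% interval -0.02 to 0.59). PLK4, which starts centriole duplication, changed by 0.24 (95% interval -0.07 to 0.55). AURKB, the kinase of the chromosomal passenger complex, changed by -0.10 (95% interval -0.39 to 0.19), with a dimmer probe set called lower at -0.72 and the mean of its probe sets called lower at -0.41.

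AURKA, the kinase of the spindle poles, stood at 10.83 and 11.02 in the IP, against 10.77 and 10.68 in the lysate (0.20, 95% interval -0.09 to 0.50). A bright AURKA probe set changed by -0.07, at 10.36 and 10.44 in the IP and 10.46 and 10.46 in the lysate. A dim one was called higher at 1.16, from signals of 5.26 and 6.35 in the IP that differ by more than 1 unit, against 4.54 and 4.76 in the lysate. AURKA was thus called higher with plain probe sets only (1.16), and also with the mean of its probe sets (0.43, adjusted p = 0.0484). BIRC5, encoding survivin, the passenger subunit that brings AURKB to the centromere, was the gene of this group that fell. It stood at 10.25 and 10.17 in the IP, against 10.72 and 10.83 in the lysate, and fell by 0.57 (adjusted p = 0.00353). Its other probe sets changed by -1.02, -0.26 and -0.04, of which the first was called, and with plain probe sets only (-0.26) BIRC5 did not pass.

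Within the spindle checkpoint, the kinase gene BUB1 rose while MAD2L1 and BUB3 fell. Of the 7 checkpoint and kinetochore genes 1 was thus called higher and 2 lower, where 35.0% and 28.8% of all genes were. BUB1 stood at 9.57 and 9.67 in the IP, against 8.97 and 8.74 in the lysate, and rose by 0.77 ± 0.13 SE (adjusted p = 0.00122). With hybridization control centring BUB1 (0.29) did not pass. MAD2L1, encoding the MAD2 protein that holds CDC20 inactive, stood at 9.66 and 9.58 in the IP, against 10.75 and 10.85 in the lysate, and fell by 1.18 ± 0.12 SE (adjusted p = 9.3e-05). Its other probe sets fell further, by 2.40 and 1.51.

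BUB3, the adaptor that brings checkpoint proteins to kinetochores, stood at 10.78 and 10.87 in the IP, against 11.71 and 11.65 in the lysate, and fell by 0.86 (adjusted p = 4.1e-04). This probe set is of the kind marked by the platform as open to cross-hybridization. Among the 5 other BUB3 probe sets, 3 fell, by 1.58, 1.26 and 1.04. A bright one, at 11.04 and 11.04 in the IP and 11.32 and 11.38 in the lysate, changed by -0.31 and was not called. A dim one, at 4.87 and 5.19 in the IP and 4.78 and 4.69 in the lysate, changed by 0.29 and was not called either.

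BUB1B, encoding the checkpoint protein BUBR1, changed by 0.15 (95% interval -0.13 to 0.43), and TTK, the kinase at the top of the checkpoint, by -0.14 (95% interval -0.49 to 0.21). The kinetochore genes CENPE, a motor that carries chromosomes to the spindle equator, and CENPF were higher on the arrays but did not pass, and the lysate replicates disagreed for both. CENPE stood at 7.64 and 7.48 in the IP, against 7.47 and 6.44 in the lysate, a change of 0.61 (adjusted p = 0.103). CENPF stood at 9.39 and 9.24 in the IP, against 9.19 and 8.49 in the lysate, a change of 0.47 (adjusted p = 0.092), with its other kept probe set called higher at 0.93. Without lysate replicate 1 the changes were 1.12 and 0.82 and passed, and with the replicate block CENPE and CENPF also passed.

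The APC/C ubiquitin ligase was split between its subunits. Of those measured, ANAPC2, ANAPC5, CDC16 and CDC23 were called higher and ANAPC11 and CDC27 lower, where 35.0% and 28.8% of all genes were. However, CDC16 (0.26) and CDC23 (-0.09) did not pass with hybridization control centring. The cullin-like subunit ANAPC2 stood at 8.10 and 8.24 in the IP, against 7.17 and 7.25 in the lysate, and rose by 0.96 (adjusted p = 2.7e-04). ANAPC11 is the small RING subunit that binds ANAPC2 to form the catalytic core. It stood at 9.71 and 9.60 in the IP, against 11.30 and 11.37 in the lysate, and fell by 1.68 ± 0.12 SE (adjusted p = 3.5e-05).

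The scaffold subunit ANAPC5 stood at 12.11 and 12.20 in the IP, against 11.20 and 11.22 in the lysate, and rose by 0.95. Another 3 of its probe sets rose, by 0.72, 1.04 and 1.06. A dim plain one was called lower at -0.65, at 4.87 and 4.94 in the IP and 5.43 and 5.67 in the lysate, so the ANAPC5 call turns to lower when only plain probe sets are used.

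CDC16, CDC23 and CDC27 are related subunits built of repeats that bind activators. CDC16 rose by 0.74 with its other probe sets at 0.58 and 0.64. CDC27 stood at 7.57 and 7.28 in the IP, against 8.65 and 8.60 in the lysate, and fell by 1.20, and its 3 other probe sets also fell. CDC23 could not be given a direction. Its brighter probe set rose by 0.39, at 10.21 and 10.22 in the IP and 9.71 and 9.93 in the lysate (adjusted p = 0.026). Its dimmer one, open to cross-hybridization, fell by 1.65, at 5.81 and 5.75 in the IP and 7.30 and 7.56 in the lysate. The mean of the CDC23 probe sets was called lower at -0.63, and the rise did not pass without either IP array (0.40 and 0.39), without lysate replicate 1 (0.28) or without the filter on low signal (adjusted p = 0.0715).

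ESPL1, encoding separase, the protease that cuts cohesin at anaphase, rose most in this group. It stood at 11.69 and 11.84 in the IP, against 10.07 and 10.23 in the lysate, a 3.06-fold rise (log2 change 1.61 ± 0.13 SE; adjusted p = 4.3e-05), and its other probe set rose by 1.43. PTTG1, encoding the separase inhibitor securin, stood at 11.82 and 11.95 in the IP, against 11.99 and 12.02 in the lysate, which is 0.12 lower (change -0.12; 95% interval -0.40 to 0.16), on a probe set open to cross-hybridization. CDC20, which activates the APC/C at the onset of anaphase, changed by 0.07 (95% interval -0.21 to 0.34). With hybridization control centring CDC20 (-0.41), PTTG1 (-0.60), AURKB (-0.58), CDK8 (-0.49) and TTK (-0.62) were called lower.

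Single probe sets of these genes often differed in size and sometimes in direction. Of the 143 probe sets, 116 were kept. Fitted by themselves over all 23516 kept probe sets, 38 were higher and 47 lower, where 33.2% and 28.3% of all kept probe sets were called. In 23 of the 32 genes with 2 or more kept probe sets all of them changed in the same direction. In 9 genes they did not, and in ANAPC5, CCNG2 and CDC23 probe sets were called in both directions. Where the probe sets lie along each mRNA was not analysed here. The 3′ to 5′ differences of GAPDH and ACTB moved with the groups, as given before, and their part in these disagreements was not tested.

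**Figure D4:**
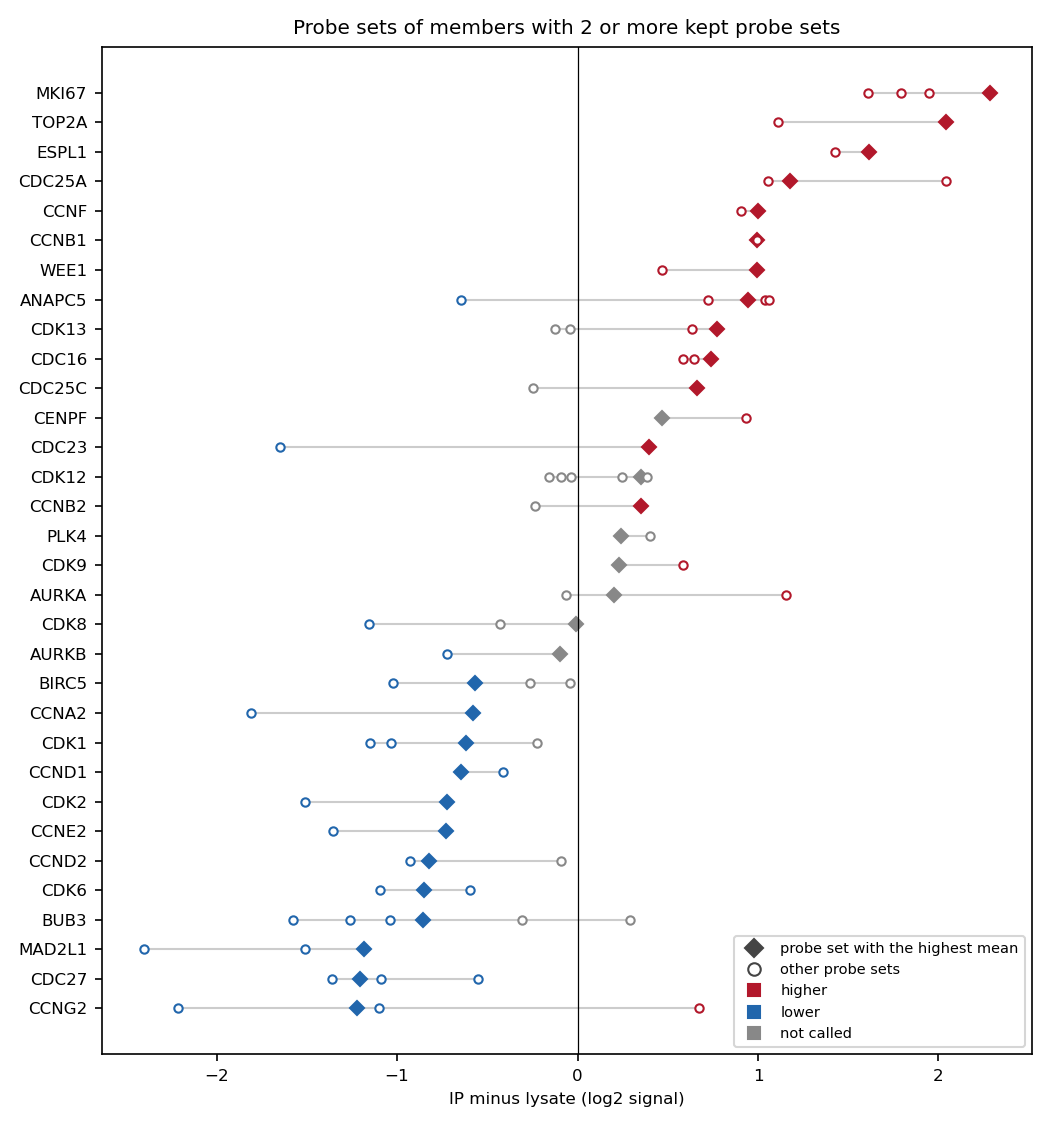
Change of each kept probe set, IP minus lysate, in log2 signal (x axis) for the 32 genes with 2 or more kept probe sets. Diamonds are the probe sets with the highest mean, which stand for the gene, and circles the others, coloured by their call. MKI67, CCNB1 and CDC27 lie wholly on one side of 0, while CDC23 spans -1.65 to 0.39 and CCNG2 -2.21 to 0.67.

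The wider cell cycle network was mixed as well. Of 123 further genes, comprising RB and E2F factors, other cyclins and CDKs, further inhibitors, APC/C and SCF ubiquitin ligase subunits and kinetochore proteins, 117 were tested, and 36 of these rose (30.8%) and 50 fell (42.7%), beside 35.0% and 28.8% of all genes. With a mean of at least 6 required, 109 were left, of which 33 rose and 49 fell, beside 41.4% and 33.6% of all genes. The median change of the 117 was -0.13. The 5 with the largest rise were CABLES1 (1.71), which links CDKs to their regulators, MNAT1 (1.68), the kinetochore genes DSN1 (1.60) and NDC80 (1.34), and HASPIN (1.51), a histone kinase of mitotic chromosomes. The 5 with the largest fall were the small APC/C subunit gene ANAPC16 (-2.88), CCNI (-2.00), CDKN2A (-1.96, on a probe set open to cross-hybridization), RBX1 (-1.95), the RING subunit of cullin ligases, and the spindle gene SKA2 (-1.90). HASPIN stood at 7.80 and 8.48 in the IP, against 6.45 and 6.82 in the lysate, and SKA2 at 9.34 and 8.69 in the IP, against 10.91 and 10.92 in the lysate, so their IP arrays differed by more than 0.6. Of 43 kinetochore and spindle genes 18 rose and 18 fell, and of 18 APC/C and SCF genes 4 rose and 10 fell, counts that were not tested against each other.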

How the data were processed

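Per the labels' protocols, cells were lysed at 150 mM KCl, the beads were washed at 300 mM KCl, and biotin-labelled RNA was put on 1 array per sample. The signals the authors deposited were taken as log2 because of their range, and the array medians were 4.67 to 4.71. The number of arrays limits the precision. How the authors corrected background, summarised probes and normalized is not given in the sources used here.

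Of 54675 probe sets, 41091 had 1 gene symbol in the platform annotation, and 41037 of these matched a GRCh38.p14 gene table by Entrez number, for current symbols only. The contrast of IP with lysate used lmFit and eBayes of limma 3.58.1 (R 4.3.3) without covariates, with 2 residual and 5.51 prior degrees of freedom, over 13157 genes, Benjamini-Hochberg adjustment and a threshold of 0.05. Tested on simulated data with 200 changed genes, this recovered 2% of genes changed by 0.5, 88% at 1, 100% at 2 and 98% at 3 (log2), with 10 false calls. More genes were called in the real arrays (8401), which lowers the change needed to pass.

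The members and lists were chosen with earlier results of these data known. All 55 genes could be named. Values per array were due for the highest and lowest change in each role and for genes whose probe sets disagree in sign, and the 5 largest called changes each way were named from the wider list. Values per array of other genes were added after they were seen. Of the 54 genes, 27 were represented by plain probe sets, 25 by sets shared between transcripts and 2 by sets that can cross-hybridize. Over the genes tested, the difference between the IP replicates correlated at 0.10 with that between the lysate replicates. The numbers were therefore not taken to pair the samples. Alternatives covered normalization, centring, the filter, the probe set, the replicate block, the spread estimate and leaving out each array. Plots were made in matplotlib 3.10.9.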

Additional observations from a re-analysis of the deposited data

How the results depend on the processing

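Of the 41 called genes, 29 kept their call and direction in each of the 13 settings in which they were measured, and 38 did so with each array left out in turn. With hybridization control centring 9 genes were higher and the median was -0.45, beside -0.40 for all genes. Of the 117 genes of the wider list 20 were higher and 73 lower, where 15.9% and 48.5% of all genes were. PLK1 (-0.20), PLK4 (-0.24), AURKA (-0.28), BUB1B (-0.33), CDC20 (-0.41), CENPF (-0.0084), CDK9 (-0.25), CDK12 (-0.13), CCNB2 (-0.13) and CDC23 (-0.0858) turned negative there. With the mean of a gene's probe sets the median was -0.13 and CDC23 stood at -0.63. With plain probe sets, which leave 39 of the genes, 14 were lower, where 28.7% of all genes were, the median was 0.23 and ANAPC5 stood at -0.65. Restricted to genes whose probe sets share a direction, a setting chosen after seeing the data that leaves 23, 8 were higher and 10 were lower, where 43.8% and 35.1% of all genes were. The median there was -0.0097. In the wider list 9 were higher and 25 lower, but the number left to test is not given here. These counts therefore cannot be set beside the shares of all genes. Without each array in turn, where the lone array left in a group is assumed to vary like the other group, 16 to 19 genes were higher, where 30.5% to 33.8% of all genes were, and 22 to 23 lower, where 25.7% to 27.5% were. The median ran from -0.008 to 0.0482, the change of CDK8 from -0.0413 to 0.0219, that of TTK from -0.33 to 0.0512 and that of AURKB from -0.20 to 0.0032. With the replicate block, 20 were higher and 23 lower, where 36.0% and 29.4% of all genes were; the samples share only a number, and whether they pair was not settled. Quantile normalization changed no call among the 54 genes. The planned comparison with protein length was not run because no protein table was used here. Centring on the hybridization controls lowers each change by the same 0.48, and the probe set restrictions leave fewer genes. The causes of the shifts in the other settings were not tested, nor was the part of the smaller number of genes.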

Other observations

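The median absolute gap between replicates of the 54 genes was 0.11 for the IP and 0.13 for the lysate, and in the wider list it was 0.12 for the IP and 0.11 for the lysate. Lysate replicate 1 exceeded lysate replicate 2 by at least 0.3 for 6 of the 54 genes and the reverse held for 1, where 7.58% and 7.81% of all genes did so. The 6 were CENPE (1.03), CENPF (0.70), MKI67 (0.40), TTK (0.38), CCNE2 (0.33) and TOP2A (0.32), named after their values were seen. On the IP arrays replicate 1 minus replicate 2 was 0.16 for CENPE, 0.15 for CENPF, -0.08 for MKI67, 0.10 for TTK, 0.10 for CCNE2 and -0.07 for TOP2A. Gaps of the opposite kind were seen for CCNG2, at 0.64 on the IP arrays and 0.02 on the lysate arrays, and for CCNC, at 0.48 on the IP arrays and 0.13 on the lysate arrays. The lysate gap of CENPE was larger than that of 99.9% of all genes in absolute size, and that of CENPF larger than 99.2%. In the wider list lysate replicate 1 was higher by at least 0.3 for 9 genes (7.69%) and lysate replicate 2 for 6 (5.13%), and the largest such gaps between lysate replicates were those of SGO2 (0.71), ANAPC10 (0.51) and NUF2 (0.42). The differences between replicates of the lysate were not tested, since each is 1 array.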
